A study of Mus musculus with 24 samples.

Results

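The genes of glucose and lactate transport, glycolysis, glycogen storage, the pyruvate dehydrogenase complex and the citric acid cycle were followed in right ventricles of mice under pressure and volume overload. They were chosen by name: 46 symbols, among them Pkm2 as the older symbol of Pkm, which gave 45 genes of 12472 genes tested. All 69 non-control probes of these genes passed the filter on dim probes, and 67 of them were well above background on all 24 arrays. The 45 genes fall into uptake and lactate transport (4), glycolysis (19), glycogen (3), the pyruvate dehydrogenase complex with 2 of its kinases (5), the mitochondrial cycle (13) and cytosolic malate dehydrogenase (1).

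Total RNA of the right ventricle was hybridised in 1 colour to Agilent arrays, with 1 array per sample. The groups were PSPI at month 1 (5 arrays), PSPI at month 2 (5), PSPI at month 3 (4) and sham operation (10), where PSPI is the labels' name for surgery that overloads the right ventricle with pressure and volume. The strain field of every sample reads M/FVB/10-12, no genotype is given, and the titles of the sham samples carry no month. The design text speaks of 4-5 ventricles a side, fewer than the 10 sham samples. Nothing in the labels ties each sample to an animal of its own, and the p-values rest on a sample-to-sample spread that may in part be technical.

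Glycolysis runs in the cytosol and splits glucose, or glucose released from glycogen, to pyruvate, which lactate dehydrogenase can turn into lactate for export. Pyruvate that enters the mitochondrion is turned into acetyl-CoA by the pyruvate dehydrogenase complex, and the citric acid cycle oxidises acetyl-CoA and passes electrons to the respiratory chain. The healthy adult heart draws most of its energy from fatty acids oxidised in mitochondria, and a larger share of glucose use is well known in hearts under overload.

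Levels are log2 signals relative to the 75th percentile of each array, so that 0 is the signal of that percentile and 1 unit is a doubling. Between 36.1% and 56.1% of the probes of an array were well above background, with the highest share on month 3 array 4. Some arrays of a group nearly coincided: 8 of 276 pairs of arrays, all within a group and 6 of them across slides, lay closer than any other pair, and averaging them left 17 samples, 4, 4 and 3 in months 1, 2 and 3 and 6 in sham. Whether such arrays hold the same RNA is not given, so that n = 10 in sham may count some ventricles more than once. Changes are given for the 24 arrays, with what changes in the 17 samples beside them. The month 1 arrays were on slides 1 (1 array), 2 (3) and 3 (1), and the month 2 arrays on slides 2 (4) and 3 (1). The month 3 arrays were on slides 2 (1 array) and 3 (3 arrays) and the sham arrays on slides 1 (7) and 3 (3). Myh7, the slow myosin heavy chain, lay between 4.67 and 5.92 on all month 2 and month 3 arrays, on month 1 arrays 1 and 5 and on sham arrays 6 to 9, and between 1.62 and 2.52 on the other 9 arrays. All 10 ventricular cardiomyocyte markers were well above background on every array.

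In month 3, 6 of the 45 genes rose and 13 fell against sham (limma, adjusted p under 0.05), where 39% of all genes were called, 17.2% higher and 21.8% lower. Of the 19 glycolysis genes 5 rose and 1 fell, and of the 13 genes of the mitochondrial cycle none rose and 8 fell. In the pyruvate dehydrogenase complex 3 of 5 genes fell, among the 3 glycogen genes 1 fell, and among the 4 transport genes 1 rose. The median change was 0.20 over the glycolysis genes, with 7 of 19 below 0, and -0.43 over the cycle genes, with 11 of 13 below 0, against -0.039 over all genes. RNA of whole tissue cannot tell fewer cells of a type from less RNA per cell.

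The split between glycolysis and the cycle depended on the scaling for its glycolysis side. With the percentile taken over all probes, which moved the median of all genes to -0.20, 3 glycolysis genes rose and 3 fell, and no cycle gene rose and 9 fell, where 10.6% of all genes were higher and 36.5% lower. With quantile normalization (median of all genes -0.13) 4 glycolysis genes rose and 5 fell, and no cycle gene rose and 11 fell, where 13.2% of all genes were higher and 31.1% lower. Relative to the median of all genes, the glycolysis median stood 0.24 above it in the main scaling, 0.24 and 0.18 above it in these 2 scalings, and 0.067 and 0.047 above it with normexp background correction and in the deposited table. The cycle median stood 0.39 below it in the main scaling and between 0.39 and 0.54 below it in the other 4. With 17 samples 3 of the 45 genes rose and 12 fell (21.7% of all genes called, 10.2% higher and 11.5% lower). Tpi1, Eno1, Pkm and Hk2 were then no longer called, and all 8 cycle genes still were.

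**Figure D1:**
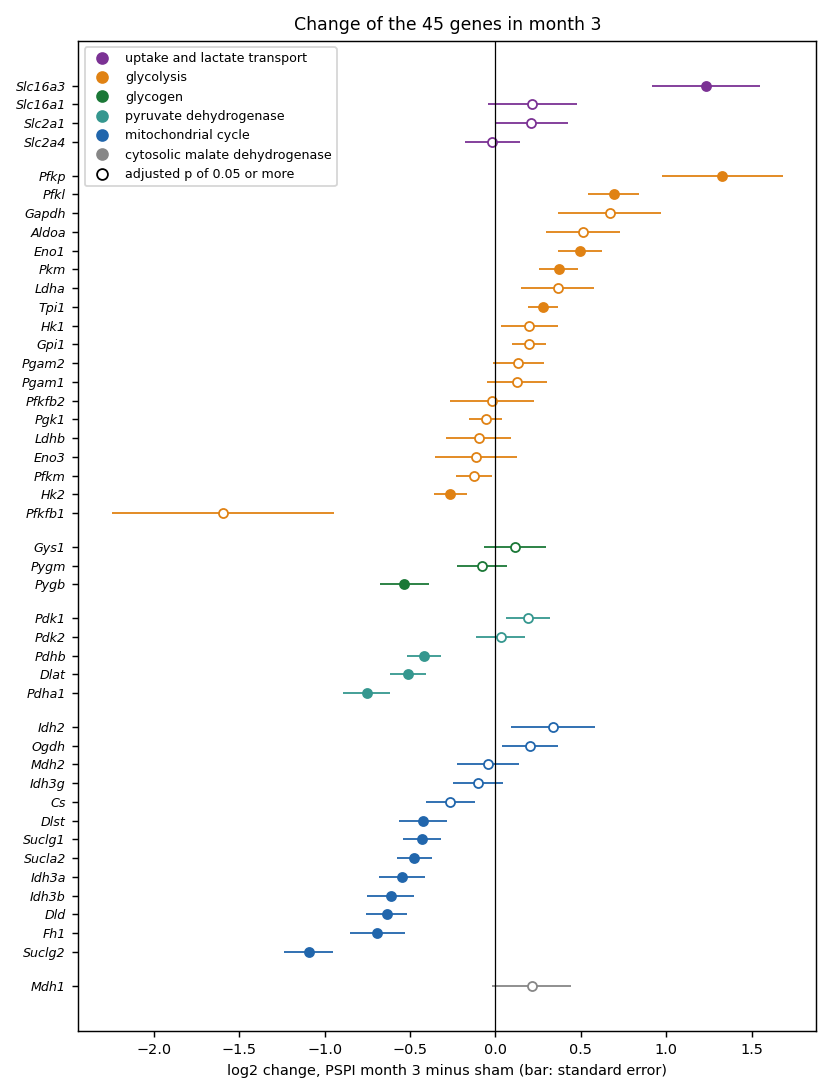
Log2 change of each of the 45 genes, PSPI month 3 minus sham, with its standard error as a bar, grouped by role; filled points have an adjusted p under 0.05 and open points do not. Filled points of the mitochondrial cycle and of pyruvate dehydrogenase all lie left of 0, and 5 of the 6 filled glycolysis points lie right of it.

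The promoter windows of the 2 genes with the largest rise and of the 2 with the largest fall in month 3 among those called are shown, so that the genes at both ends of the contrast can be read side by side. Each runs from 250 bases before to 50 bases after a RefSeq start in GRCm38.p6, 5′ to 3′ on the gene's strand. Capitals mark every match, on either strand, of the letters searched. These were TNAAGGTCA for estrogen-related receptors, the motif of nuclear respiratory factor 1, CCGGAAG for the ETS family, ACGTG and GCGTG for hypoxia-inducible factors, and CACGTG for E box proteins, which contains ACGTG.
Slc16a3, chr11:120948817-120949116, plus strand: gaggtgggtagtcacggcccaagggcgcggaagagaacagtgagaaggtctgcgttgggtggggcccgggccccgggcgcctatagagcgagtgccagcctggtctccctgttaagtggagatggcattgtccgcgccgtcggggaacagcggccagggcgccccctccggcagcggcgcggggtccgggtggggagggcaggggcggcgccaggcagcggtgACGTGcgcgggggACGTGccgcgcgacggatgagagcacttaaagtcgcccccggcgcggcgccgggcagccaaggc
Pfkp, chr13:6648722-6649021, minus strand: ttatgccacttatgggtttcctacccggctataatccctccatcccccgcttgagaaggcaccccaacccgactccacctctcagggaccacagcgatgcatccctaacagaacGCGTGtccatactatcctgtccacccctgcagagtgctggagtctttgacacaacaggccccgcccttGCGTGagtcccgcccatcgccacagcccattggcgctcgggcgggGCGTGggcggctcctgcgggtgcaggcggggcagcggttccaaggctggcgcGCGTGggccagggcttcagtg
Pdha1, chrX:160138381-160138680, minus strand: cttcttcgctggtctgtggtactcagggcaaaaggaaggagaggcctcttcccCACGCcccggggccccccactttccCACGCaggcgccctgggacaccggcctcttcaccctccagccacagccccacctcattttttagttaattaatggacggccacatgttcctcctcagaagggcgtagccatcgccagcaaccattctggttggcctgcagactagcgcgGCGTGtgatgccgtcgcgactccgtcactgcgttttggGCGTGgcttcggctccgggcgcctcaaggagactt
Suclg2, chr6:95718797-95719096, minus strand: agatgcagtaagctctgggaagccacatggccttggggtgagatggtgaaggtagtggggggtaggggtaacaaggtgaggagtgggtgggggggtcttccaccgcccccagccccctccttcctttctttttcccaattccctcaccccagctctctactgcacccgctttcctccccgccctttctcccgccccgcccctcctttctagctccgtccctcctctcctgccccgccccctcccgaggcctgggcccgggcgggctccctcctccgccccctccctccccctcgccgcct

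The Slc16a3 window held ACGTG at 2 places, the Pfkp window GCGTG at 4 and the Pdha1 window GCGTG or its reverse complement CACGC at 4, while the Suclg2 window held none of the letters searched. Of the 45 genes 43 had a window, 65 windows in all. The letters ACGTG or GCGTG stood in 24 of 34 glycolysis windows (70.6%), in 15 of 24 windows of pyruvate dehydrogenase and cycle genes (62.5%) and in 43.8% of all 32851 windows. CCGGAAG stood in 1 of 34 glycolysis windows (2.94%), in 3 of 24 windows of pyruvate dehydrogenase and cycle genes (12.5%) and in 8.86% of all windows. The nuclear respiratory factor 1 motif stood in 3 glycolysis windows (8.82%), in 2 windows of pyruvate dehydrogenase and cycle genes (8.33%) and in 4.6% of all windows. TNAAGGTCA stood in 1 glycolysis window (2.94%), in none of the pyruvate dehydrogenase and cycle genes and in 1.28% of all windows, and CACGTG in 8.82%, 16.7% and 7.15% in the same order. Windows of 1 gene can overlap: Ogdh gave 6 of the 15 windows with ACGTG or GCGTG, which came from 10 genes, and 3 of the 4 with CACGTG, the other being of Pdk2. The 24 glycolysis windows came from 16 genes. A match is a description of the letters only.

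Slc16a3 encodes MCT4, the plasma membrane carrier known for lactate export from glycolytic cells. Its levels were -2.35, -3.83, -3.60, -3.39 and -2.59 on the month 1 arrays, -1.36, -2.35, -2.37, -2.79 and -1.45 on the month 2 arrays and -1.59, -2.48, -2.55 and -1.79 on the month 3 arrays, against a lowest of -4.14, a median of -3.32 and a highest of -2.52 on the sham arrays. Of the month 3 arrays 3 of 4, and of the month 2 arrays 4 of 5, lay above every sham array. Slc16a3 rose 2.35-fold in month 3 (log2 change 1.23 ± 0.32 (SE), adjusted p = 0.00418) and 2.41-fold in month 2 (log2 change 1.27 ± 0.29 (SE), adjusted p = 0.00847), with the month 2 call lost with 17 samples (adjusted p = 0.0993). A second probe for Slc16a3 gave 1.27 in month 3. The other carriers did not pass the test in month 3. Slc2a1 (GLUT1, basal glucose uptake) changed by 0.21, Slc16a1 (MCT1, lactate carrier) by 0.22 and Slc2a4 (GLUT4, insulin-dependent glucose uptake) by -0.018 (adjusted p = 0.453, 0.532 and 0.942). Slc2a1 was uneven in month 3, with levels of 0.20, -1.20, -1.0 and -0.90, and only array 1 lay above the sham range of -1.39 to -0.57. Slc16a1 was dim, well above background on 20 of 24 arrays.

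Phosphofructokinase catalyses the committed step of glycolysis, and 2 of its 3 subunit genes rose in month 3. Pfkl, the liver-type subunit, had levels of -0.87, -0.96, -1.0, -0.81 and -0.76 in month 1, -0.38, -0.23, -0.47, -0.81 and -0.31 in month 2 and -0.36, -0.76, -0.71 and -0.55 in month 3, against a lowest of -1.70, a median of -1.34 and a highest of -0.74 in sham. Month 2 and month 3 arrays lay above the sham median throughout, 4 of 5 and 3 of 4 of them above every sham array. Pfkl rose 1.62-fold in month 3 (log2 change 0.69 ± 0.15 (SE), adjusted p = 0.00103) and 1.8-fold in month 2 (log2 change 0.84 ± 0.14 (SE), adjusted p = 0.00137), with the month 2 call lost with 17 samples (adjusted p = 0.0588). Pfkp, the platelet-type subunit, had levels of -1.13, -2.58, -2.84, -2.42 and -1.13 in month 1, -0.60, -0.98, -0.79, -0.92 and -0.56 in month 2 and -0.54, -0.88, -0.78 and -0.90 in month 3, against a lowest of -2.88, a median of -2.42 and a highest of -0.95 in sham. Pfkp was the one gene of the 45 with all 4 month 3 arrays above every sham array, which held for 5.72% of all genes, and it rose 2.51-fold (log2 change 1.33 ± 0.35 (SE), adjusted p = 0.00548). Pfkm, the muscle-type subunit, had 3.45, 3.81, 3.86 and 3.45 in month 3 against a lowest of 3.64, a median of 3.71 and a highest of 4.02 in sham, and did not pass the test (log2 change -0.13 ± 0.11 (SE), adjusted p = 0.355). The 2 month 1 arrays and 4 sham arrays with high Myh7 had Pfkp between -1.91 and -0.95, and the 9 arrays with low Myh7 had it between -2.88 and -2.41, so that Pfkp differed within the sham and month 1 groups along with Myh7. Slc16a3 was likewise between -4.14 and -3.27 on the 9 arrays with low Myh7 and between -3.09 and -1.36 on the other 15. Altogether 4 of the 45 genes (Slc16a3, Pfkp, Pfkfb1 and Suclg1) and 4.59% of all genes had ranges that did not overlap between these 9 and 15 arrays. The part of Myh7 in these results was not tested.

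**Figure D2:**
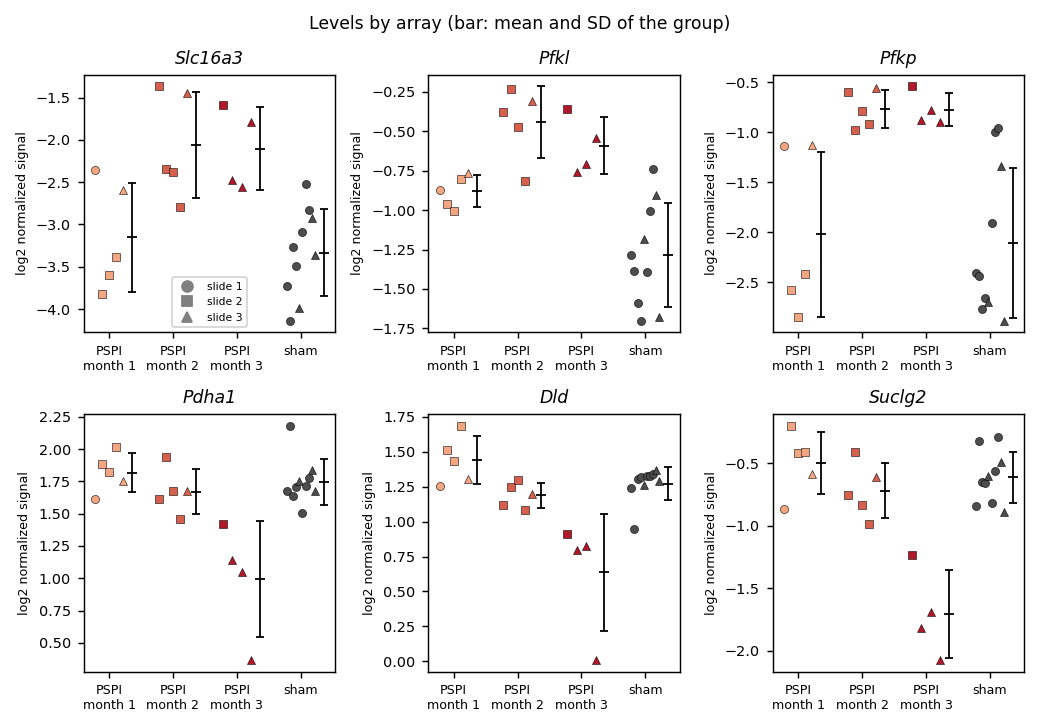
Log2 normalized signal of 6 genes on each of the 24 arrays, by group, with the mean and SD of each group as a bar at its right and the slide as the marker shape. Slc16a3, Pfkl and Pfkp are high in months 2 and 3, with Pfkp and Slc16a3 split within month 1 and sham, and Pdha1, Dld and Suclg2 have all month 3 arrays below every sham array.

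Pfkfb1 and Pfkfb2 encode the bifunctional enzymes that set fructose 2,6-bisphosphate, the activator of phosphofructokinase. Pfkfb1 had levels of -1.94, 0.90, 0.88, 0.80 and -2.04 in month 1, -2.49, -0.66, -1.49, -1.28 and -2.38 in month 2 and -2.45, -1.35, -1.20 and -2.40 in month 3, against a lowest of -2.25, a median of 0.44 and a highest of 0.96 in sham. Its values fell into 2 ranges, 0.38 to 0.96 on the 9 arrays with low Myh7 and -2.49 to -0.66 on the other 15, so that the sham and month 1 groups each held both. With this spread the difference in month 3 missed the threshold (log2 change -1.59 ± 0.65 (SE), adjusted p = 0.0553). Pfkfb2 changed by -0.019 (adjusted p = 0.959).

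In the later steps of the pathway, Eno1, the broadly expressed enolase, had levels of 1.45, 2.06, 1.97 and 1.89 in month 3, against a lowest of 1.00, a median of 1.39 and a highest of 1.65 in sham. Of the month 3 arrays 3 of 4 lay above every sham array, and Eno1 rose 1.41-fold (log2 change 0.50 ± 0.13 (SE), adjusted p = 0.00487). Pkm, pyruvate kinase, had 3.16, 3.63, 3.53 and 3.30 in month 3, against a lowest of 2.73, a median of 3.03 and a highest of 3.34 in sham, and rose 1.29-fold (log2 change 0.37 ± 0.11 (SE), adjusted p = 0.0134). Tpi1, triose phosphate isomerase, had 4.05, 3.99, 4.16 and 3.82 in month 3, against a lowest of 3.52, a median of 3.74 and a highest of 3.99 in sham (log2 change 0.28 ± 0.088 (SE), adjusted p = 0.0161). Its 2 probes went opposite ways, 0.28 and -0.29, and their mean gave no call. The rises of Eno1, Pkm and Tpi1 were under 1.5-fold and missed the threshold with 17 samples (adjusted p = 0.0521, 0.117 and 0.123). Pkm was also lost without month 3 array 2 or 3, and Tpi1 without month 3 array 3.

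Hk2, an insulin-responsive hexokinase of muscle and heart, was the one glycolysis gene that fell, to 1.24, 0.82, 1.12 and 1.01 in month 3, against a lowest of 1.06, a median of 1.30 and a highest of 1.57 in sham. The difference was small (log2 change -0.26 ± 0.096 (SE), adjusted p = 0.0335) and was lost with 17 samples (adjusted p = 0.119) and without sham array 5 or 6 or month 3 array 2 or 4. Hk1, the constitutive hexokinase, changed by 0.20 (adjusted p = 0.36), while the next brightest of its 3 probes gave 0.50 (adjusted p = 0.00488) and the dimmest 0.33 (adjusted p = 0.16).

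Altogether 13 of the 19 glycolysis genes did not pass the test in month 3. Aldoa (aldolase) had 6.09, 7.07, 7.12 and 6.28 in month 3, against a lowest of 5.70, a median of 6.02 and a highest of 6.65 in sham, with 2 of 4 arrays above every sham array (log2 change 0.51 ± 0.22 (SE), adjusted p = 0.0644). Gapdh (glyceraldehyde phosphate dehydrogenase) had 5.20, 6.76, 6.82 and 5.67 in month 3, against a lowest of 4.91, a median of 5.32 and a highest of 6.17 in sham (log2 change 0.67 ± 0.30 (SE), adjusted p = 0.0813). The brightest Gapdh probe lies on chromosome 7 of mm9 although the gene lies on chromosome 6, so that copies of this gene may share it. The 6 probes on chromosome 6 changed by 0.20 to 0.70, of which 2 passed the test (adjusted p = 0.0461 and 0.00518). Ldha, the lactate dehydrogenase subunit of glycolytic tissue, changed by 0.36 by its brightest probe (adjusted p = 0.176), by 0.033 by the next and by 0.78 by the dimmest (adjusted p = 2.09e-05), so that the probes disagree. Ldhb, the subunit typical of heart, changed by -0.098 (adjusted p = 0.708). Gpi1, Pgam1, Pgam2, Pgk1 and Eno3 changed by between -0.11 and 0.20.

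The 3 genes of pyruvate dehydrogenase itself fell together in month 3. Pdha1, the alpha subunit of the decarboxylase, had levels of 1.62, 1.89, 1.82, 2.01 and 1.75 in month 1, 1.61, 1.94, 1.68, 1.46 and 1.67 in month 2 and 1.42, 1.14, 1.05 and 0.37 in month 3, against a lowest of 1.5, a median of 1.71 and a highest of 2.18 in sham. All month 3 arrays lay below every sham array, and Pdha1 fell to 0.593 times the sham level (log2 change -0.75 ± 0.14 (SE), adjusted p = 0.000229). Pdhb, the beta subunit, had 2.35, 2.62, 2.55 and 2.11 in month 3, against a lowest of 2.70, a median of 2.82 and a highest of 2.97 in sham (log2 change -0.42 ± 0.10 (SE), adjusted p = 0.00243). Its 2 dimmer probes gave -0.26 and -0.30 and did not pass the test. Dlat, the acetyltransferase core, had 1.07, 0.99, 1.12 and 0.80 in month 3, against a lowest of 1.30, a median of 1.48 and a highest of 1.79 in sham, and fell to 0.7 times that level (log2 change -0.51 ± 0.11 (SE), adjusted p = 0.000728). Both Pdhb and Dlat were below every sham array on all 4 month 3 arrays, as were 6.66% of all genes. The kinases that switch the complex off, Pdk1 and Pdk2, changed by 0.19 and 0.031 in month 3 (adjusted p = 0.248 and 0.883).

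Within the mitochondrial cycle the fall ran through 3 enzyme complexes and fumarase. Suclg2, the subunit that gives succinyl-CoA ligase its GTP specificity, had levels of -0.86, -0.20, -0.42, -0.41 and -0.59 in month 1, -0.75, -0.41, -0.83, -0.99 and -0.61 in month 2 and -1.23, -1.82, -1.69 and -2.07 in month 3, against a lowest of -0.89, a median of -0.63 and a highest of -0.29 in sham. Every month 3 array lay below every other array of the series. Suclg2 fell to 0.469 times the sham level (log2 change -1.09 ± 0.14 (SE), adjusted p = 6.35e-06). Sucla2, the subunit of the ATP-specific form, had 3.40, 3.5, 3.53, 3.55 and 3.5 in month 2 and 3.38, 3.34, 3.61 and 3.01 in month 3, against a lowest of 3.63, a median of 3.79 and a highest of 3.99 in sham. All 5 month 2 arrays and all 4 month 3 arrays were below every sham array, as held for 1.88% of all genes in month 2, and Sucla2 fell in month 2 (log2 change -0.31 ± 0.094 (SE), adjusted p = 0.0289) and in month 3 (log2 change -0.47 ± 0.10 (SE), adjusted p = 0.000994). With 17 samples the month 2 call was lost (adjusted p = 0.123). Suclg1, the subunit that both forms share, had 2.57, 2.61, 2.85 and 2.23 in month 3, against a lowest of 2.79, a median of 2.97 and a highest of 3.26 in sham, with 3 of 4 arrays below every sham array (log2 change -0.43 ± 0.11 (SE), adjusted p = 0.00485).

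Isocitrate dehydrogenase 3, the NAD-dependent enzyme of the cycle, fell in 2 of its 3 subunits. Idh3a, the catalytic subunit, had 2.55, 2.48, 2.85 and 1.86 in month 3, against a lowest of 2.71, a median of 2.98 and a highest of 3.36 in sham (log2 change -0.55 ± 0.14 (SE), adjusted p = 0.00358). Idh3b had 3.40, 3.19, 3.35 and 2.65 in month 3, against a lowest of 3.60, a median of 3.76 and a highest of 3.92 in sham, all 4 below every sham array (log2 change -0.61 ± 0.14 (SE), adjusted p = 0.00149). Idh3g had 3.75, 4.47, 4.42 and 4.02 in month 3, against a lowest of 3.9, a median of 4.28 and a highest of 4.69 in sham, and did not pass the test (log2 change -0.10 ± 0.15 (SE), adjusted p = 0.594).

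The 2-oxoglutarate dehydrogenase complex was likewise uneven. Dld, the dihydrolipoyl dehydrogenase that this complex shares with pyruvate dehydrogenase, had levels of 1.26, 1.51, 1.43, 1.69 and 1.31 in month 1, 1.12, 1.25, 1.30, 1.08 and 1.20 in month 2 and 0.91, 0.80, 0.83 and 0.0093 in month 3, against a lowest of 0.95, a median of 1.31 and a highest of 1.37 in sham. All 4 month 3 arrays lay below every sham array, array 4 far below the other 3, and Dld fell to 0.644 times the sham level (log2 change -0.64 ± 0.12 (SE), adjusted p = 0.000339). A second Dld probe gave -0.96. Dlst, the succinyltransferase core, had 2.31, 2.83, 2.46 and 2.16 in month 3, against a lowest of 2.61, a median of 2.84 and a highest of 3.31 in sham (log2 change -0.42 ± 0.14 (SE), adjusted p = 0.0206), and was lost without month 3 array 1 or 4 and with slide as a block (adjusted p = 0.0614). Ogdh, the decarboxylase of the complex, had 4.37, 5.09, 5.25 and 4.73 in month 3, against a lowest of 4.31, a median of 4.62 and a highest of 5.05 in sham, and did not pass the test (log2 change 0.20 ± 0.16 (SE), adjusted p = 0.338).

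Fh1, fumarase, had 2.95, 3.34, 3.16 and 2.89 in month 3, against a lowest of 3.51, a median of 3.70 and a highest of 4.25 in sham. All 4 month 3 arrays lay below every sham array and Fh1 fell to 0.619 times that level (log2 change -0.69 ± 0.16 (SE), adjusted p = 0.00206), with -0.65 by a second probe. The other enzymes of the cycle did not pass the test: Cs (citrate synthase) changed by -0.26, Mdh2 (mitochondrial malate dehydrogenase) by -0.043 and Idh2 (the NADP-dependent isocitrate dehydrogenase of mitochondria) by 0.34 (adjusted p = 0.146, 0.87 and 0.282). Mdh1, the cytosolic malate dehydrogenase, changed by 0.21 (adjusted p = 0.482).

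The 8 cycle genes that fell and the 5 that did not pass the test also differed in brightness: the mean sham level of their probes was -0.61 to 3.81 for the 8 and 4.27 to 5.83 for the 5. Over all genes, the median change in month 3 was -0.072 for the 654 genes with a sham level of 2 to 4 and 0.11 for the 226 genes at 4 or more. In these ranges, drawn after the values were seen, 22.6% and 4.87% of genes fell. The part of probe brightness in the contrast within the cycle was not tested. Relative to the median of all genes of like sham level, 11 of 13 cycle genes stayed below 0 with a median of -0.37, and 5 of 19 glycolysis genes were below 0 with a median of 0.25.

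**Figure D3:**
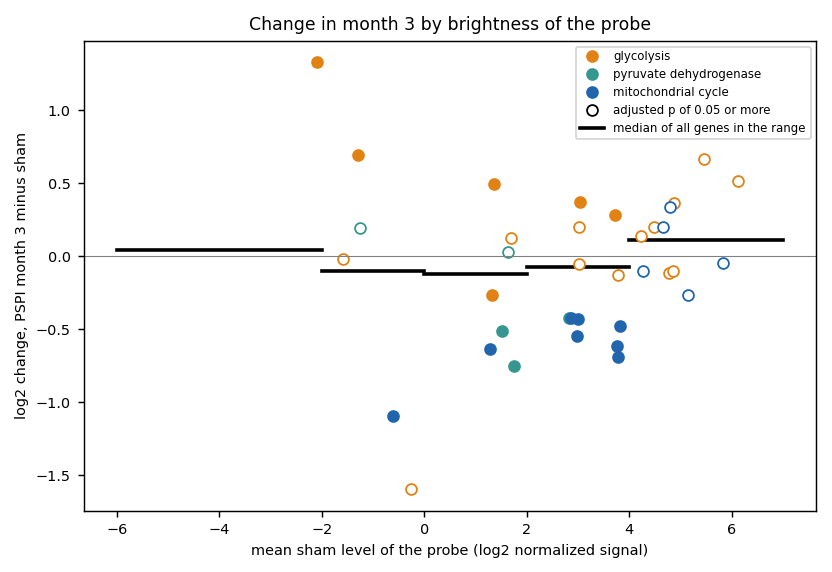
Log2 change in PSPI month 3 minus sham for each glycolysis, pyruvate dehydrogenase and cycle gene against the mean sham level of its probe; filled points have an adjusted p under 0.05, and black lines are the medians of all genes in 5 ranges of sham level, the outer ones open-ended. The filled cycle points lie at levels up to 3.81 and the open ones at 4.27 or more.

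Of the 3 glycogen genes 1 passed the test in month 3. Pygb, the brain-type glycogen phosphorylase, had 1.12, 0.83, 0.86 and -0.036 in month 3, against a lowest of 1.04, a median of 1.23 and a highest of 1.48 in sham, and fell to 0.691 times that level (log2 change -0.53 ± 0.14 (SE), adjusted p = 0.00565), with 3 of 4 arrays below every sham array and array 4 far below the other 3. Pygm, the muscle phosphorylase, changed by -0.077 and Gys1, the muscle glycogen synthase, by 0.12 (adjusted p = 0.696 and 0.636). A second, dimmer Gys1 probe gave -0.58 (adjusted p = 0.00921).

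Averaged over its genes, each centred on its mean over the 24 arrays, glycolysis minus the mitochondrial cycle gave one value per array. It was -0.14 ± 0.17 in month 1, 0.14 ± 0.034 in month 2 and 0.38 ± 0.13 in month 3, against -0.15 ± 0.088 in sham (mean ± SD, n = 5, 5, 4 and 10). The month 3 arrays ran from 0.28 to 0.56, the month 2 arrays from 0.11 to 0.18 and the sham arrays from -0.24 to 0.016, so that neither month overlapped sham. The month 1 arrays ran from -0.29 to 0.054 and overlapped sham. Month 3 stood 0.53 above sham, and 0.52 above it with normexp. On slide 3 alone the 3 month 3 arrays ran from 0.31 to 0.56 and the 3 sham arrays from -0.24 to -0.071. The month 3 arrays differed in which side carried the gap. The glycolysis mean was -0.065, 0.27, 0.29 and -0.075 on arrays 1 to 4, against -0.23 to 0.21 in sham. The cycle mean was -0.35, -0.0990, -0.018 and -0.64 on these arrays, against -0.0995 to 0.36 in sham. Only arrays 2 and 3 had a glycolysis mean above the sham range, and they are a pair that nearly coincided and was averaged in the 17 samples. Array 4 also had the largest share of probes well above background. The difference was -0.11 to 0.56 on the 15 arrays with high Myh7 and -0.29 to -0.15 on the 9 with low Myh7, and the part of Myh7 in it was not tested.

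**Figure D4:**
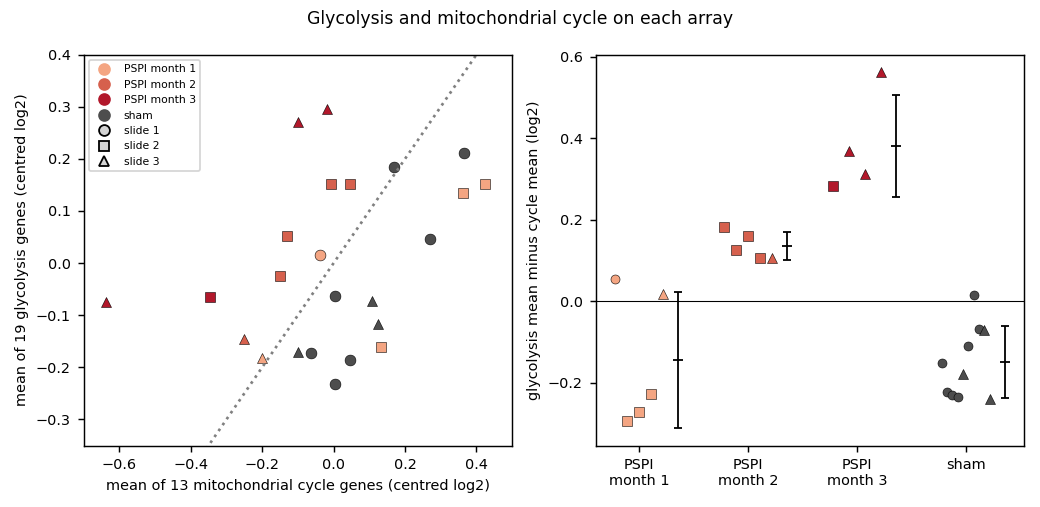
Left, the mean of the 19 glycolysis genes against the mean of the 13 mitochondrial cycle genes on each array, with equal values on the dotted line; right, their difference by group with mean and SD, and the slide as the marker shape. Month 3 arrays lie above the line, from 0.28 to 0.56, and sham arrays from -0.24 to 0.016.

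Earlier months showed fewer calls. In month 1 none of the 45 genes passed the test, nor did any other gene (0% called); without adjustment, p was under 0.05 for 1 of the 45, Pfkl, and for 12.1% of all genes. All 5 month 1 arrays of Pgk1 lay above every sham array, as for 0.385% of all genes. No gene of the 45 had all 5 month 1 arrays below every sham array, as 0.273% of all genes did. In month 2, 4 rose and 2 fell where 14.4% of all genes were called, 6.31% higher and 8.11% lower. Slc16a3, Pfkl, Pfkp and Pgk1 rose and Dlat and Sucla2 fell, and with 17 samples none was called (0.0561% of all genes, 0.0481% higher and 0.00802% lower). Pgk1 (phosphoglycerate kinase) changed by 0.28 ± 0.091 (SE), but its probe lies on chromosome 3 of mm9 and the gene on chromosome X, so that its signal may come from a copy. Without month 2 array 1, 3 or 5 the count in month 2 was 3, and the share of all genes in these fits is not given. The cycle median was 0.066 in month 1, -0.17 in month 2 and -0.43 in month 3, and the glycolysis median 0.055, 0.12 and 0.20. Of the 5 month 2 arrays 4 were on slide 2, which held no sham array. Within slide 3, where 1 month 2 array stood beside 3 sham arrays, the glycolysis median was -0.088 and the cycle median -0.34. The part of the slide in the medians of the months was not tested. All 13 cycle genes were below 0 in month 2, 1 of them past the threshold, where 53.1% of all genes were below 0 (median -0.020). The comparisons of the months with sham share the sham arrays, and genes measured on the same arrays are not independent.

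Between month 2 and month 1 none of the 45 genes passed the test (0.016% of all genes called, 0.00802% each way), and without adjustment 5 of the 45 and 12.8% of all genes had a p under 0.05. With the replicate number as a block, which sets same-numbered arrays together, Pfkp was called (0.641% of all genes). Between month 3 and month 1, 2 genes rose and 11 fell (28.5% of all genes called, 11.9% higher and 16.6% lower). The 2 were Slc16a3 and Pfkp, and the 11 were Pygb, Pdha1, Dlat and all 8 cycle genes that fell against sham. Between month 3 and month 2 no gene rose and Pgk1, Pygb, Pdha1, Idh3b, Dld and Suclg2 fell (18.7% of all genes called, 8.98% higher and 9.73% lower). Suclg2 in month 3 set against month 1 had a log2 change -1.21 ± 0.16 (SE), adjusted p = 2.01e-05, and Dld a change of -0.80 (adjusted p = 0.000221). With 17 samples the comparison with month 1 kept all 13 calls and added Pdhb (20.1% of all genes called, 8.93% higher and 11.2% lower). With slide as a block both rises and the falls of Dlat, Idh3a, Dlst, Sucla2 and Fh1 were lost (18% of all genes called), and on slide 3 alone none of the 13 was called (0.722% of all genes). Both rises were also lost without month 1 array 2, 3 or 4, that of Slc16a3 without month 3 array 1 or 4 and that of Pfkp without month 3 array 3. Among the falls, Dlst was lost without month 1 array 3 or 4 or month 3 array 1, 3 or 4, Sucla2 without month 1 array 3 or month 3 array 4, and Dlat and Idh3a without month 3 array 4. The comparison with month 2 lost Pgk1 and Idh3b with 17 samples (7.95% called, 4.26% higher and 3.7% lower), Pgk1, Pygb and Idh3b without month 3 array 4, and all but Suclg2 with slide as a block (7.38% called). Pgk1 was also lost without month 2 array 1, 2, 3 or 5 or month 3 array 2 or 3, and Idh3b without month 2 array 1, 2, 3 or 4 or month 3 array 2.

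**Figure D5:**
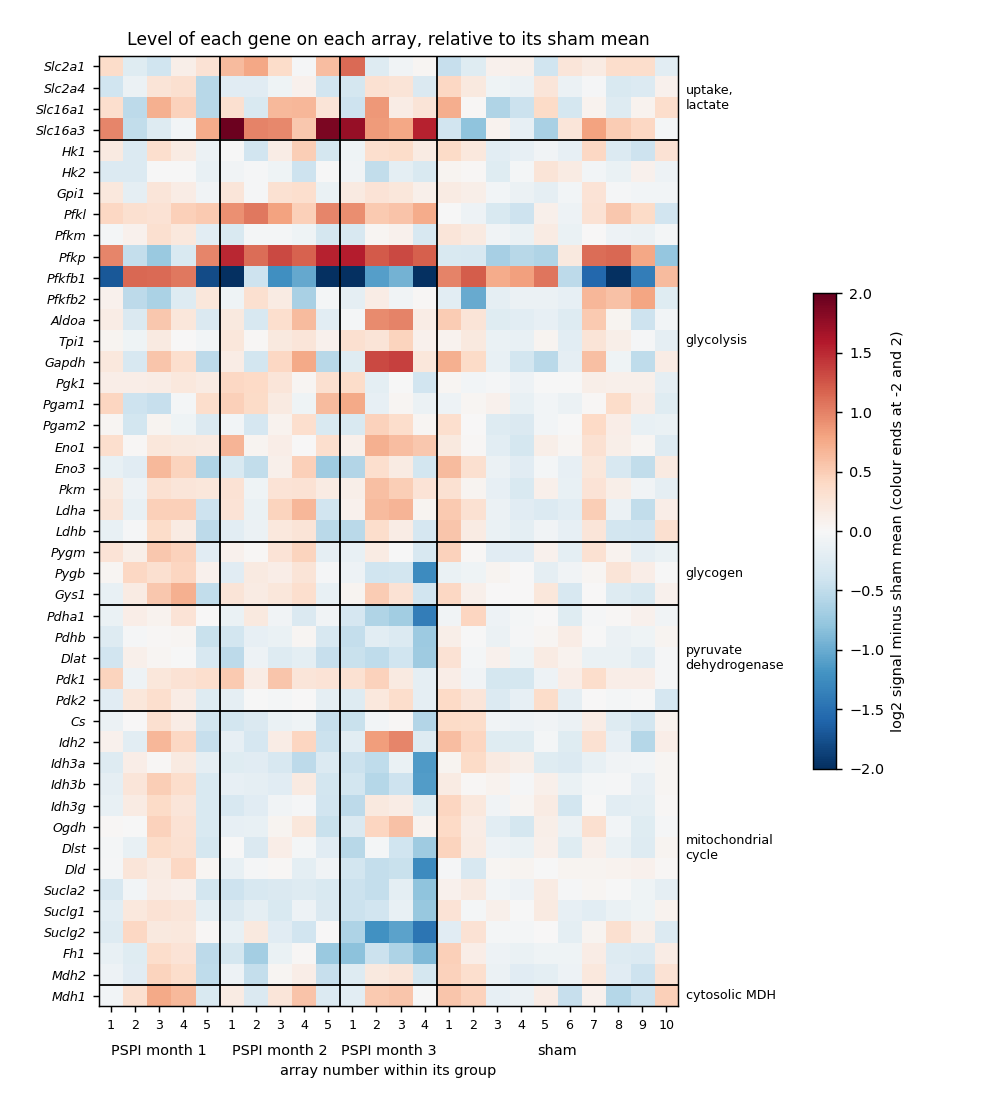
Level of each of the 45 genes on each of the 24 arrays as log2 signal minus the gene's sham mean, red above and blue below it, with arrays in columns by group and genes in rows by role. Blue cells of pyruvate dehydrogenase and the cycle gather in month 3, deepest on array 4, while Pfkp, Slc16a3 and Pfkfb1 divide the month 1 and sham arrays.

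Over all 3 months together, 6 of the 45 genes rose and 6 fell (24.4% of all genes called, 10.7% higher and 13.7% lower). Slc16a3, Pfkl, Pfkp, Eno1, Pkm and Pdk1 rose, by 0.89, 0.65, 0.92, 0.31, 0.24 and 0.26 on the log2 scale. Pdhb, Dlat, Idh3a, Sucla2, Suclg2 and Fh1 changed by -0.25, -0.31, -0.30, -0.29, -0.36 and -0.38 and fell. Pdk1, the kinase known as a target of hypoxia-inducible factor, was the weakest of these (adjusted p = 0.0421) and missed the threshold in 15 of the 24 fits that left out 1 array. With 17 samples 2 of the 12 remained called, Pfkl and Sucla2 (adjusted p = 0.0175 and 0.0478), where 6.15% of all genes were, 3.32% higher and 2.83% lower.

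Within slide 3, which held 3 arrays of month 3 and 3 of sham, the median change in month 3 was 0.31 over the glycolysis genes, -0.40 over pyruvate dehydrogenase and -0.45 over the cycle, with 9 of 13 cycle genes below 0. In a fit of the 8 arrays of slide 3 alone, 3 genes passed the test where 12.9% of all genes did (7.06% higher and 5.85% lower), Eno1 upward (0.66) and Pdha1 and Suclg2 downward (-0.90 and -1.20). Slide as a block in the fit of all arrays kept 6 rises and lost Dlst among the falls. Of all genes 31.9% were called in that fit, 13.9% higher and 18% lower. Pfkfb1 was then called lower.

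Other genes of these pathways were listed by pathway, with earlier results of these data known. For each list the share over all genes in month 3 was 17.2% higher and 21.8% lower. Of 17 tested genes of glycolysis and gluconeogenesis 2 rose and 4 fell in month 3. The median change over this list was -0.12, against -0.039 over all genes. Eno2, the neuron-type enolase, averaged -2.11 ± 0.55 in month 3 and -3.29 ± 0.40 in sham (log2 change 1.17 ± 0.25 (SE), adjusted p = 0.000963). Aldoc, the brain-type aldolase, averaged -4.04 ± 0.20 and -5.32 ± 0.39 in the same groups (log2 change 1.28 ± 0.25 (SE), adjusted p = 0.000402). Ldhd, the D-lactate dehydrogenase and 1 of the 4 that fell, changed by -0.73 (adjusted p = 0.000186). Of 7 genes of the pentose phosphate pathway 2 rose and 1 fell: G6pdx, its first enzyme, changed by 0.33 (adjusted p = 0.0044), Tkt (transketolase) by 0.28 and Rpia (ribose phosphate isomerase) by -0.42. With 17 samples 2 rose and 2 fell in the first list, and in the second 2 rose and Rpia was lost. Of all genes 10.2% were then higher and 11.5% lower.

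Of 16 further glycogen genes 1 rose and 3 fell in month 3 (17.2% of all genes higher and 21.8% lower). Ppp1r3d and Ppp1r3a, which target phosphatase 1 to glycogen, changed by -1.07 and -0.68 (adjusted p = 0.000295 and 0.021). Gyg, glycogenin, was the one that rose (log2 change 0.36 ± 0.14 (SE), adjusted p = 0.0389). With 17 samples none rose and 2 fell (10.2% of all genes higher and 11.5% lower), and Gyg and Ppp1r3a were lost.

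In the lists of pyruvate entry, other enzymes of and around the cycle, and the malate-aspartate shuttle, no gene rose in month 3. Of the tested genes 1 of 7, 3 of 9 and 1 of 5 fell, where 17.2% of all genes rose and 21.8% fell. Pdp1, the phosphatase that switches pyruvate dehydrogenase on, averaged -1.89 ± 0.24 in month 3 and -1.32 ± 0.20 in sham (log2 change -0.58 ± 0.12 (SE), adjusted p = 0.000736). The succinate dehydrogenase subunits Sdhd and Sdha changed by -0.44 and -0.36 (adjusted p = 0.00134 and 0.00948), Me1 (cytosolic malic enzyme) by -0.30 and Slc25a13 (aspartate-glutamate carrier) by -0.35. With 17 samples Sdha and Me1 were lost. Of 16 regulators 1 rose and 7 fell, and with 17 samples none rose and 5 fell. With 17 samples 10.2% of all genes rose and 11.5% fell. Tfam, the mitochondrial transcription factor, averaged -1.50 ± 0.39 in month 3 and -0.67 ± 0.093 in sham (log2 change -0.84 ± 0.10 (SE), adjusted p = 3.07e-06). Mlxip, a glucose-sensing factor, changed by -0.66, Ppara, a regulator of fatty acid oxidation, by -0.58 and Esrrg, an estrogen-related receptor, by -0.57 (adjusted p = 4.53e-05, 0.00136 and 0.00297). Hif1a and Ppargc1a did not pass the test (0.11 and 0.60).

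Markers of cell types were also tested in month 3, where 17.2% of all genes were higher and 21.8% lower. Of 5 listed neutrophil markers the 3 tested rose, and Ly6g and Retnlg were not tested. The mean over these 3 was 0.20 to 1.80 on month 3 arrays and -2.55 to -0.37 on sham arrays. Of 6 macrophage markers 3 rose (0.065 to 0.24 and -0.58 to 0.10 in the same order). Of 7 endothelial markers 3 rose (0.10 to 0.56 and -0.19 to 0.26). Of 8 fibroblast markers 2 rose and 1 fell (-0.50 to 0.53 and -0.83 to 0.30), and of 3 tested adipocyte markers 2 fell (-2.01 to -1.07 and -2.26 to 2.69). Of 10 ventricular cardiomyocyte markers Mybpc3 rose (0.64) and Ryr2 and Pln changed by -0.78 and -0.91 and fell, while the mean over the list was -0.26 to 0.40 on month 3 arrays and -0.41 to 0.41 on sham arrays. Atrial markers spread from -2.52 to -0.97 on month 3 arrays and from -4.11 to 4.47 on sham arrays, and 7 of 10 skeletal muscle markers, Myh1, Myh2 and Myh4 among them, did not pass the filter on dim probes. Of 6 smooth muscle and pericyte markers 1 rose (-0.41 to 0.30 on month 3 arrays and -0.65 to 0.41 on sham arrays), and none of the 3 tested skeletal muscle, 3 erythroid and 5 atrial markers passed the test. With 17 samples all 3 neutrophil markers, 2 macrophage markers, 1 fibroblast marker (Dcn), and the falls of Ryr2 and Pln were still called, and none of the endothelial, adipocyte or smooth muscle markers nor Mybpc3 was. In that setting 10.2% of all genes were higher and 11.5% lower. Csf3r, 1 of the 3 neutrophil markers, was bright in sham (mean 2.70), where S100a8 and S100a9 averaged -6.29 and -4.02. S100a8 was well above background on 19 arrays, S100a9 on 23 and Csf3r on every array. A probe dim in sham can pass the filter through another group, so that the filter may have shaped this list. In month 2 Csf3r changed by -0.0053, and S100a8 and S100a9 by 2.88 and 2.90. The part of these cell types in the results was not tested.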

How the data were processed

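Per the labels' protocols, total RNA was labelled with Cy3 and hybridised in 1 colour, and per the submitters' processing notes the arrays were read with Feature Extraction 10.7.3.1. The intensity used was the processed signal that the authors' scanner output gives per spot, background-subtracted per the file headers, on probes placed in mm9. The deposited table of the series equals the net signal within a relative 0.001 and, after log2, served as an alternative. Levels are log2 signals minus the 75th percentile of each array, computed from the 16963 probes that exceeded background clearly (the scanner software's flag) on each of the 24 arrays. A probe was kept (21038 of 55681) if some group had that flag on all of its arrays, and a gene is its brightest kept probe. Groups follow the sample titles. Deviations of all 5 same-number pairs of month 1 and month 2 correlated (r = 0.191 to 0.522), a hint of pairing from the data and not from the labels. Pairs 2, 3 and 4 also shared slide 2 and pair 5 slide 3, so that there a pairing cannot be told apart from the slide. Pair 1, on slides 1 and 2, had r = 0.231. Other groups did not pair by number in this way. limma 3.58.1 in R 4.3.3 fitted 4 group means over 12472 genes, with moderated tests, two-sided, and Benjamini-Hochberg adjustment at 0.05; it was tested on simulated data. The number of arrays limits the precision. Alternatives covered scaling, background correction, filter, probe choice, slide, replicate number, array weights and leaving out each array. The averaging to 17 samples was chosen after the data were seen.

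The members and all lists were chosen with earlier results of these data known. Named genes are members called in month 3 or over all months, up to 3 others a role by p, and up to 3 genes by p of each other list. Rpia, Gyg, Sdha, Me1, Slc25a13, Esrrg, Hif1a and Ppargc1a were named after their values were seen. Promoter windows are from RefSeq, GRCm38.p6. One gene of the other lists is not reported here.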

Additional observations from a re-analysis of the deposited data

Results flagged for a closer look

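Single arrays stood far from the rest of their group in 6 of 180 gene and group pairs, fewer than the about 1 in 20 that chance gives. Month 3 array 4 had Dld at 0.0093, while the other 3 arrays lay between 0.80 and 0.91. Month 2 array 4 had Hk2 at 0.90 (the others 1.22 to 1.30) and Idh3a at 2.45 (the others 2.66 to 2.75). Month 1 array 2 had Pkm at 2.94 (the others 3.23 to 3.34). Sham array 2 had Pdha1 at 2.18 (the others 1.5 to 1.84) and Dld at 0.95 (the others 1.24 to 1.37).

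The change against sham differed between months where month 3 differed from month 1 or 2 by limma, since the sham arrays are shared. The log2 differences of month 3 minus month 1, each with its adjusted p in parentheses, were positive for Slc16a3 1.05 (0.0317) and Pfkp 1.25 (0.024). They were negative for Pygb -0.79 (0.00115), Pdha1 -0.82 (0.00057), Dlat -0.40 (0.0158), Idh3a -0.53 (0.0149), Idh3b -0.73 (0.00158). They were also negative for Dlst -0.45 (0.0379), Dld -0.80 (0.000221), Sucla2 -0.38 (0.017), Suclg1 -0.50 (0.00628), Suclg2 -1.21 (2.01e-05), Fh1 -0.63 (0.0128). The differences of month 3 minus month 2 were negative for Pgk1 -0.34 (0.0349), Pygb -0.60 (0.0126), Pdha1 -0.68 (0.00389), Idh3b -0.46 (0.04), Dld -0.55 (0.00675), Suclg2 -0.99 (0.000217).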

How the results depend on the processing

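Counts of the 45 genes called are given against the main counts of 12 (all months against sham), 0 (month 1), 6 (month 2), 19 (month 3), 0 (month 2 against month 1), 13 (month 3 against month 1) and 6 (month 3 against month 2). The share of all genes called under the same setting stands in parentheses, except for the fits that left out 1 array. Counts from those fits cannot be set against such a share here. For all months the count was 2 with 17 samples (6.15%), 0 on slide 3 alone (0%) and 20 with array weights (41.3%). For month 1 it was 1 with the replicate block (0.649%) and 1 with array weights (4.96%). For month 2 it was 3 with the percentile over all probes (13.3%), 3 without a filter (3.6%), 10 with the mean of a gene's probes (13.9%), 1 with arrays averaged by the SD of their differences (4.45%), 0 with 17 samples (0.0561%), 0 on slide 3 alone (0%) and 17 with array weights (35.5%). For month 3 it was 3 on slide 3 alone (12.9%) and 15 with 17 samples (21.7%). With quantile normalization (44.3%) 4 glycolysis genes rose in month 3 and 5 fell, and 3 pyruvate dehydrogenase and 11 cycle genes fell. Counts are not listed for every setting. For month 2 against month 1 it was 1 with the replicate block (0.641%) and 15 with array weights (16.7%). For month 3 against month 1 it was 6 with slide as a fixed block (18%), 0 on slide 3 alone (0.722%), 22 with array weights (47.4%) and 5 with only those groups in the fit (14.7%). For month 3 against month 2 it was 10 with quantile normalization (24.6%), 1 with slide as a fixed block (7.38%), 0 on slide 3 alone (1.52%), 13 with array weights (43.4%) and 1 with only those groups in the fit (9.32%). Leaving out each array in turn gave 9 to 14 for all months, 0 for month 1, 3 to 8 for month 2, 17 to 21 for month 3, 0 for month 2 against month 1, 9 to 16 for month 3 against month 1 and 3 to 7 for month 3 against month 2, the 3 without month 3 array 4. Tpi1 in month 3 changed sign with the mean of its probes (-0.0041, adjusted p = 0.979). The cause of these differences was not tested. Slide 3 alone also holds fewer arrays, and the part of this in its counts was not tested. Same-numbered arrays correlated at -0.445 to 0.522 (median 0.0044, 9 of 27 pairs over 0.1). Between month 1 and month 2 all 5 pairs were over 0.1, with a shared slide in pairs 2 to 5. The numbers do not pair the other groups. With the replicate block 17 genes were called in month 3 (37.4%) and 11 over all months (26.7%), and in month 2 against sham the share of all genes called was 24.2%, against 14.4% without it. Slc16a1 and the second Pfkp probe are limited by their dim signal.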
